A study of Arabidopsis thaliana with 9 samples.

Results

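The SWEET genes of Arabidopsis thaliana numbered 1 to 8 encode the sugar transporters of clades I and II of their family. They were taken as the probe sets whose single gene symbol in the platform's annotation is SWEET1 to SWEET8. Of the 8 symbols, 7 were present with 1 probe set each, among 13350 genes with a single symbol. These were SWEET1 (AT1G21460), SWEET2 (AT3G14770), SWEET3 (AT5G53190), SWEET4 (AT3G28007), SWEET6 (AT1G66770), SWEET7 (AT4G10850) and SWEET8 (AT5G40260). The rule goes by gene symbol alone, but the members were chosen with earlier results of these data known.

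The 9 arrays were hybridised with RNA from the above-ground parts of 8-week-old greenhouse plants in the Col-0 background, with 3 biological replicates in each of 3 groups. Stunted plants came from an msh1 RNAi transgenic line with a stunted phenotype. Variegated plants came from an msh1 RNAi transgenic line with leaf variegation, and wild-type plants are labelled as such, without a transgene named. MSH1 is a nuclear gene whose product suppresses recombination of the mitochondrial and plastid genomes, and RNAi lowers its transcript. The promoter of the RNAi construct and the number of independent lines are not given in the sources used here. MSH1 itself was not analysed here.

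SWEET proteins are membrane uniporters that let sugars move down their gradient, out of a cell, into it, or across the vacuole membrane. Members of clades I and II mostly carry hexoses, while the later members SWEET9 to SWEET15 mostly carry sucrose and SWEET16 and SWEET17 sit in the vacuole membrane. In leaves, SWEET11 and SWEET12 release sucrose for loading into the phloem, and other members serve nectaries, pollen, seeds and roots.

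The values are log2 expression values, so a difference of 1 is a 2-fold change. A change passed where its p-value, from a linear model in limma over all 22746 probe sets and adjusted by the Benjamini-Hochberg method, was under 0.05. Stunted replicate 1 stood apart, with a mean correlation of 0.988 with the other arrays of its group, the lowest of the 9 arrays, and of up to 0.990 with an array of another group. Its 25S rRNA control signal was 4.50, against 8.58 and 8.99 on the other stunted arrays. On the variegated arrays this signal was 4.49, 4.97 and 8.66, and on the wild-type arrays 4.25, 4.19 and 6.44. The value of 4.50 was thus low only within its own group. Results that rest on this array are given with and without it.

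SWEET2 was the member that rose, and it did so in stunted plants. SWEET2 resides in the vacuole membrane, where it is known to hold sugar back from loss by roots. Its log2 level was 6.20, 6.18 and 5.55 on the 3 stunted arrays, 4.55, 4.32 and 4.80 on the variegated arrays, and 4.38, 4.31 and 3.84 on the wild-type arrays. All 3 stunted arrays lay above the other 6, while the variegated and wild-type arrays overlapped. The share of all probe sets with stunted arrays above the other 6 was not computed. The means were 5.98 ± 0.37 in stunted, 4.56 ± 0.24 in variegated and 4.18 ± 0.29 in wild-type plants (SD, n = 3 each).

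SWEET2 rose by 1.80 on the log2 scale in stunted against wild-type plants (SE 0.21, 3.48-fold, limma adjusted p = 0.00142). Of all probe sets tested in this comparison, 9.66% passed and 4.91% rose. SWEET2 was the 1 member of 7 that passed. It ranked 171 of 22746 by p-value, and 33 probe sets (0.145%), SWEET2 included, had a rise at least as large. Its arrays did not overlap between the groups, as was true in the same direction of 11.9% of all probe sets. The exact permutation test of 3 arrays against 3 gave p = 0.1, the smallest that this design allows.

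SWEET2 was also higher in stunted than in variegated plants, by 1.42 (SE 0.21, 2.68-fold, limma adjusted p = 0.0160). In this comparison 1.74% of all probe sets passed and 0.87% rose, while 8.11% had arrays that were all higher in stunted plants, SWEET2 among them. It was again the 1 member of 7 that passed. This call was lost without variegated replicate 1 (adjusted p = 0.0818), without variegated replicate 2 (0.0646) and without stunted replicate 2 (0.0727), with changes of 1.42, 1.31 and 1.32. The rise against wild type passed without any 1 of the 9 arrays, with changes of 1.63 to 2.01 and adjusted p of 0.00143 to 0.00817. The plot of single-array omissions shows these values.

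In variegated plants, SWEET2 had a change of 0.38 against wild type (SE 0.21, 95% interval -0.09 to 0.85, adjusted p = 0.540). The interval includes 0. The change was 0.21 without wild-type replicate 3 and at most 0.49, without variegated replicate 2, and leaving out any 1 of the 9 arrays did not make it pass (adjusted p of 0.404 to 0.776). The order of the 3 groups was therefore stunted, then variegated and wild type, with the variegated and wild-type levels not told apart.

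**Figure D1:**
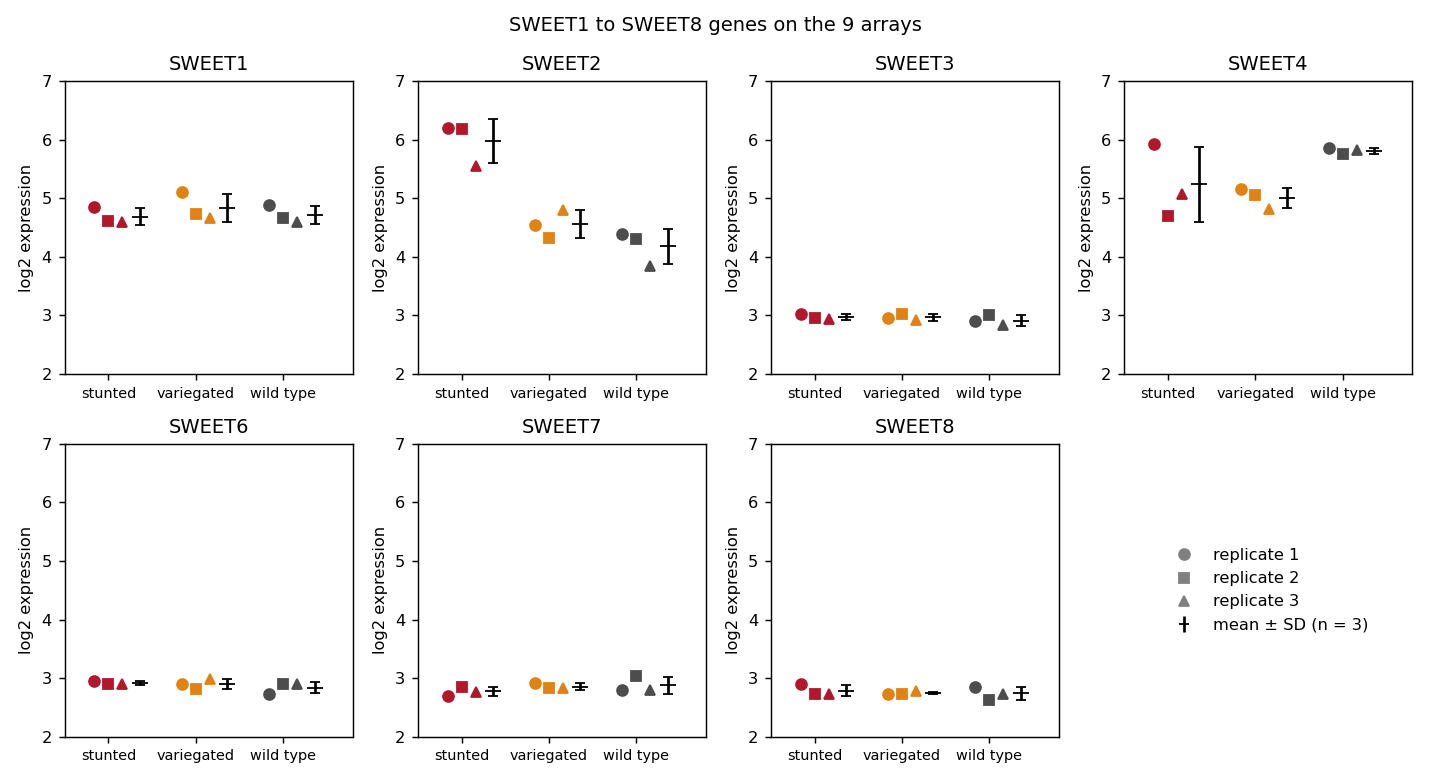
Log2 expression (y axis) of the 7 measured genes on each array, by group, with the mean and SD of 3 arrays beside the points. SWEET2 is higher on the 3 stunted arrays (5.55 to 6.20) than on the other 6 (3.84 to 4.80), SWEET4 is lower on all variegated arrays and on 2 of the 3 stunted arrays than in wild type, and SWEET3, SWEET6, SWEET7 and SWEET8 stay between 2.63 and 3.04.

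SWEET4 had the next largest differences, and they ran the other way. SWEET4 is a plasma membrane transporter of glucose and fructose, expressed in and around leaf veins. Its log2 level was 5.93, 4.69 and 5.08 on the stunted arrays, 5.16, 5.05 and 4.81 on the variegated arrays, and 5.85, 5.75 and 5.82 on the wild-type arrays. The variegated arrays all lay below the wild-type arrays, by at least 0.59, a pattern found in 7.43% of all probe sets. Stunted replicate 1 lay above all wild-type arrays, while the other 2 stunted arrays lay below them.

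The change of SWEET4 in variegated against wild-type plants was -0.80 (SE 0.26, 95% interval -1.38 to -0.22) and did not pass over all probe sets (adjusted p = 0.248). None of the 7 members passed in this comparison, where 0.444% of all probe sets did. Before adjustment, SWEET4 was the 1 member of 7 with a limma p under 0.05, as had 11.6% of all probe sets, so that this count is near the background. The model shares its estimate of the spread over the 3 groups, and the SD of SWEET4 was 0.63 in stunted, 0.18 in variegated and 0.05 in wild-type plants (n = 3). Fitted with variegated and wild-type arrays alone, the same change had an SE of 0.10 and passed (adjusted p = 0.0248). It also passed without stunted replicate 1 (adjusted p = 0.0278). Of 9 single-array omissions and 9 other alternatives, only 1 each passed. In each of these settings 206 of all probe sets passed, against 101 in the main model. With the 25S signal as a covariate the change was -0.64 (adjusted p = 0.137), and with bioB -0.62 (adjusted p = 0.482).

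In stunted against wild-type plants SWEET4 had a change of -0.57 (SE 0.26, 95% interval -1.15 to 0.01, adjusted p = 0.230). Without stunted replicate 1 the change was -0.92 and passed (SE 0.14, adjusted p = 0.00351), and without stunted replicate 2 it was -0.30 (adjusted p = 0.560). With the 25S rRNA signal as a covariate the change was -0.22 (adjusted p = 0.636). Stunted replicate 1 had the highest SWEET4 value of the 9 arrays and the lowest 25S signal of its group. Beyond its use as a covariate, the part of the 25S signal in the result was not tested. The difference between stunted and variegated plants was 0.23 (95% interval -0.35 to 0.81, adjusted p = 0.767), so that either order of these groups fits the interval.

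**Figure D2:**
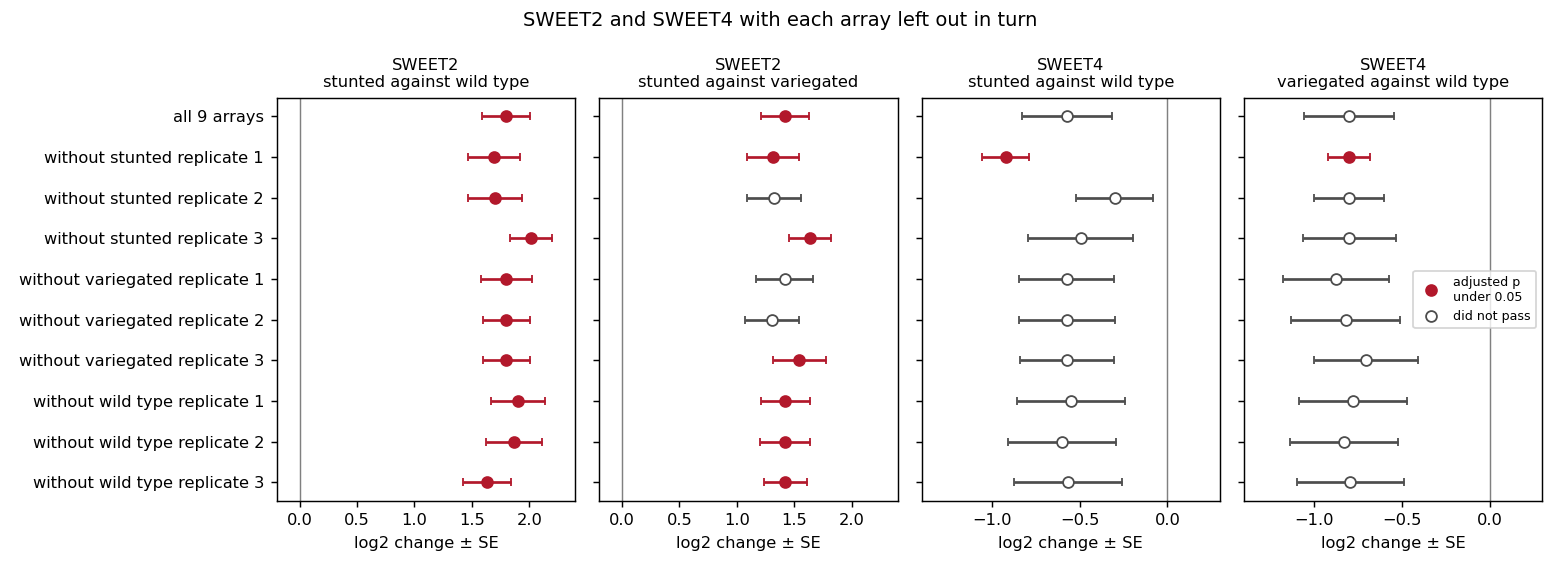
Log2 change ± SE (x axis) of SWEET2 and SWEET4 with all 9 arrays and with each array left out in turn (rows), with filled points where the adjusted p is under 0.05. SWEET2 against wild type stays between 1.63 and 2.01, and SWEET4 passes against wild type in either phenotype only when stunted replicate 1 is left out.

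SWEET1, a plasma membrane glucose transporter of the same clade as SWEET2, differed little between the groups. Its log2 level was 4.85, 4.60 and 4.60 on the stunted arrays, 5.11, 4.73 and 4.66 on the variegated arrays, and 4.89, 4.66 and 4.59 on the wild-type arrays. The groups overlapped throughout, and in each group replicate 1 was the highest array. The changes were -0.03 in stunted (95% interval -0.34 to 0.27) and 0.12 in variegated plants (-0.19 to 0.42), each against wild type, with adjusted p of 0.935 and 0.801.

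The remaining 4 members were dim. SWEET3 completes clade I with SWEET1 and SWEET2. SWEET6 and SWEET7 belong to clade II, as does SWEET8, a glucose transporter that pollen needs to form and survive, also named RPG1. Each lay below the median of all probe sets on all 9 arrays, at 2.83 to 3.03 for SWEET3, 2.73 to 2.98 for SWEET6, 2.70 to 3.04 for SWEET7 and 2.63 to 2.90 for SWEET8. Between the groups their changes lay from -0.10 to 0.08 in all 3 comparisons, and none passed (adjusted p of 0.567 to 0.998).

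Such values are close to the lower end of the scale, where the lowest value on an array was 1.98 to 2.22. No detection calls were among the files used here, so whether these 4 transcripts were present was not measured. SWEET6 had exactly the same deposited value, 2.89, on 4 of the 9 arrays, and SWEET8 the value 2.74 on 4 arrays. Of all probe sets, 52.4% had at least 1 value shared by several arrays, and SWEET2 and SWEET4 had none. Of 6 pollen and anther markers, 1 had a probe set with a single gene symbol, the tapetum gene A9. It also stayed below the array medians, at 2.60 to 2.99.

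**Figure D3:**
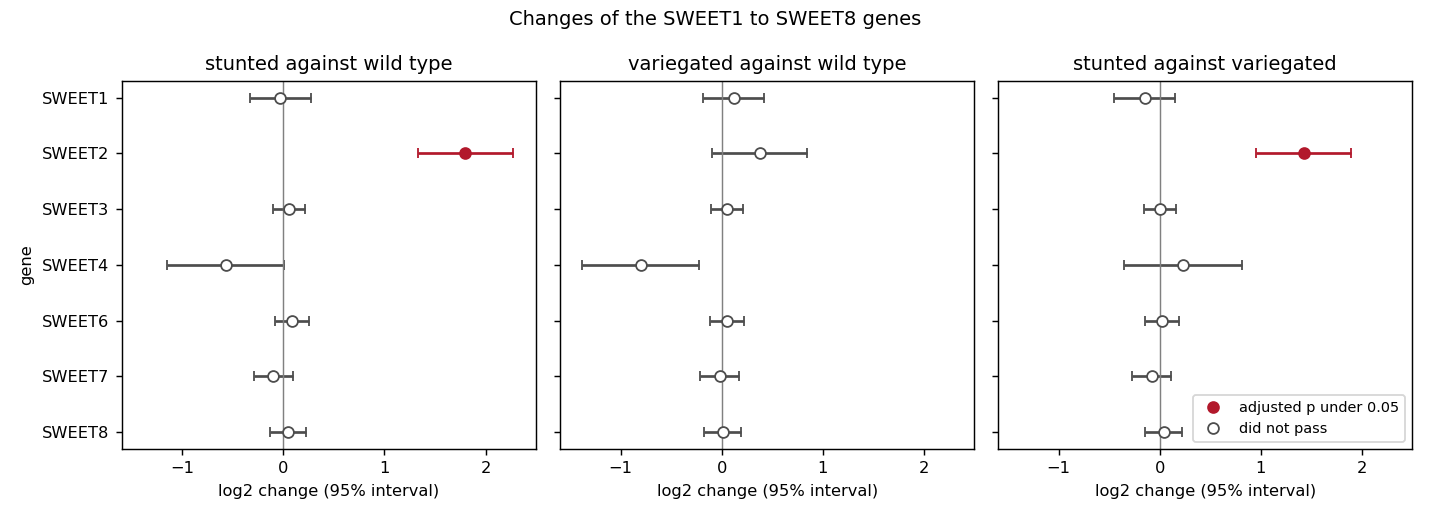
Log2 change with its 95% interval (x axis) of each of the 7 genes (rows) in the 3 comparisons, with filled points where the adjusted p is under 0.05. SWEET2 passes in stunted plants against wild type (1.80) and against variegated plants (1.42), and the SWEET4 interval in variegated plants (-1.38 to -0.22) lies below 0 without passing.

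Across the 7 members, the median change was 0.05 in stunted and 0.05 in variegated plants against wild type, beside 0.01 over all probe sets in either comparison. The comparisons against wild type share the same 3 wild-type arrays. The residual SD, the spread of arrays within groups, was 0.38 for SWEET4, 0.30 for SWEET2 and 0.19 for SWEET1, and 0.07 to 0.10 for the 4 dim members. With whole above-ground parts, fewer cells of a type and less RNA per cell cannot be told apart.

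Of the other genes of sugar transport and sucrose metabolism looked for, 22 of 75 had a probe set with a single gene symbol. Only such genes are called measured here. The platform's annotation listed no gene for 8730 probe sets and several for 503, so the others may still be on the array. TMT1 was the only gene of the 22 that passed in any of the 3 comparisons, which it did in stunted against wild-type plants. There 9.66% of all probe sets passed, so that this count is not above the background. TMT1 is a vacuole membrane antiporter that loads glucose and sucrose into the vacuole. Its log2 level was 5.14, 5.36 and 4.68 on the stunted arrays, 5.89, 5.54 and 5.89 on the variegated arrays, and 5.96, 6.29 and 6.23 on the wild-type arrays. The 3 stunted arrays lay below all others, a pattern whose share over all probe sets was not computed. The variegated arrays lay below the wild-type arrays, as in 7.43% of all probe sets.

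TMT1 fell in stunted against wild-type plants, with a change of -1.10 (SE 0.18, limma adjusted p = 0.00561), and the call held without any 1 of the 9 arrays (adjusted p of 0.00791 to 0.0258). In variegated plants its change was -0.39 (SE 0.18, adjusted p = 0.443), and against variegated plants the stunted change was -0.71 (adjusted p = 0.0849). Its paralog TMT2 had a change of -0.21 in stunted plants (adjusted p = 0.437), and TMT3 had 0.09 (adjusted p = 0.514) at levels of 2.86 to 3.10. SWEET2 and TMT1 thus changed in opposite directions in stunted plants, at 1.80 and -1.10.

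Of the later SWEET genes, 8 of 9 were measured, and none passed in the 3 comparisons (adjusted p of 0.0510 to 0.955). At an unadjusted p under 0.05 there were 3 against wild type in stunted plants and 2 in variegated plants, and 1 between the phenotypes, out of 8 each. Over all probe sets 22.5%, 11.6% and 15.4% had such a p in these comparisons. SWEET17, a fructose transporter of the vacuole membrane, came nearest. Its log2 level was 7.25, 7.17 and 6.93 on the stunted arrays, 7.27, 7.05 and 7.16 on the variegated arrays, and 7.36, 7.53 and 7.64 on the wild-type arrays. Both phenotypes lay below all wild-type arrays, which for variegated plants was true of 7.43% of all probe sets. The share for stunted plants in this direction was not computed. Its change was -0.39 in stunted (SE 0.11, adjusted p = 0.0510) and -0.35 in variegated plants (SE 0.11, adjusted p = 0.218). In stunted plants it passed without stunted replicate 1 (-0.46, adjusted p = 0.0311) and without wild-type replicate 1 (-0.47, adjusted p = 0.0471).

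SWEET13, a sucrose transporter, had -0.43 in stunted and -0.54 in variegated plants, with adjusted p of 0.117 and 0.180. Without wild-type replicate 1 its change in stunted plants was -0.58 and passed (adjusted p = 0.0445). SWEET15, which is induced in senescing leaves and also known as SAG29, had -1.11 in stunted plants (SE 0.40, adjusted p = 0.127). Its wild-type arrays were spread from 4.97 to 6.58, and without wild-type replicate 3 the change was -0.61. SWEET11, of phloem loading, was at 8.77 to 9.07 on stunted, 8.62 to 8.99 on variegated and 8.98 to 9.28 on wild-type arrays and did not pass (adjusted p of 0.441 in stunted and 0.439 in variegated plants). The median change of the 8 later SWEET genes was -0.08 in stunted and -0.16 in variegated plants, beside 0.01 over all probe sets.

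Of the remaining sugar genes, 9 of 28 monosaccharide carriers, TMT1 among them, 2 of 10 invertases and 3 of 14 sucrose synthesis and cleavage genes were measured, while the 9 sucrose carriers and 5 hexokinases were not analysed here. SFP1, a carrier of the ERD6 family, had 0.38 in stunted and -0.39 in variegated plants, with adjusted p of 0.224 and 0.420, and the difference of 0.78 between the phenotypes did not pass either (adjusted p = 0.0607). SPS4F, a sucrose phosphate synthase, had a change of 1.39 in stunted plants (SE 0.44, adjusted p = 0.0840). Its level was 4.71 on stunted replicate 1, against 5.99 and 6.69 on the other stunted arrays, and without replicate 1 the change was 1.94 and passed (adjusted p = 0.00406). Without stunted replicate 3 the change was 0.95 (adjusted p = 0.210). It was 0.68 with the actin signal as a covariate (adjusted p = 0.406) and 0.83 with the 25S signal (adjusted p = 0.230), and it passed with the replicate block (adjusted p = 0.0109) and the intensity trend (0.0451).

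**Figure D4:**
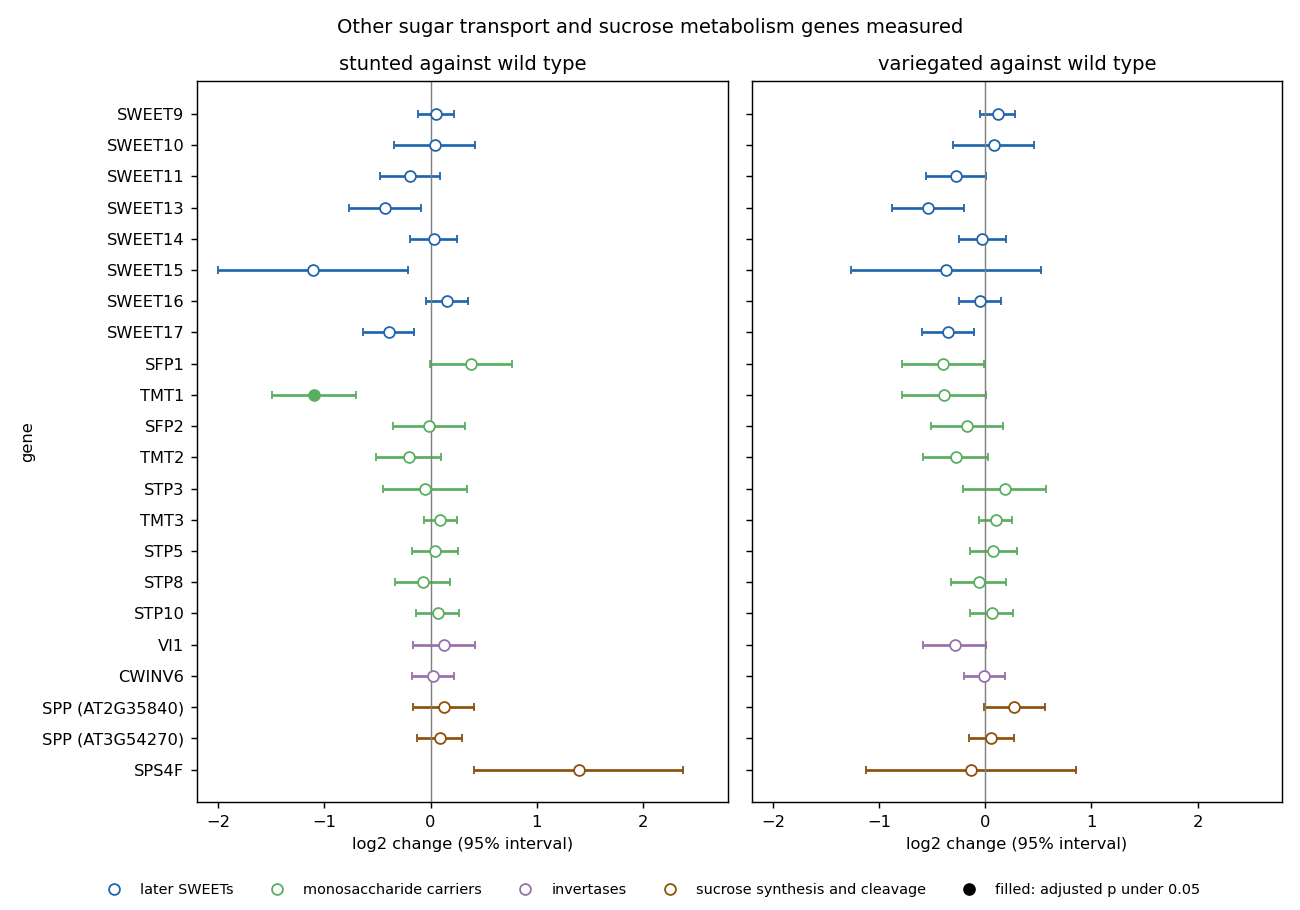
Log2 change with its 95% interval (x axis) of the 22 other sugar genes measured (rows, coloured by list), in stunted and in variegated plants against wild type. TMT1 in stunted plants (-1.10) is the filled point, with an adjusted p under 0.05, while SWEET17 in stunted plants (-0.39) has an adjusted p of 0.0510.

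Of the root and senescence markers measured, PYK10 and WRKY6 rose in stunted plants as SWEET2 did, and the others did not pass. Because SWEET2 is known from roots, root markers were read beside it, of which 3 of 6 were measured. PYK10, a beta-glucosidase abundant in roots, rose by 1.50 in stunted plants (SE 0.15, adjusted p = 0.000875). Its level was 5.51, 5.55 and 5.98 on the stunted, 3.78, 3.95 and 4.09 on the variegated and 4.45, 4.09 and 4.01 on the wild-type arrays. The root hair expansins EXPA7 and EXPA18 stayed below the array medians on all 9 arrays, at 2.63 to 3.24, with changes of 0.01 and -0.14 in stunted plants (adjusted p of 0.964 and 0.485). The mean log2 level of the 3 root markers was 3.69 to 3.86 on stunted, 3.26 to 3.47 on variegated and 3.21 to 3.38 on wild-type arrays. The higher mean on the stunted arrays came from PYK10, beside changes of 0.01 for EXPA7 and -0.14 for EXPA18. PYK10 was the only 1 of the 3 that passed in stunted against wild-type plants, where 9.66% of all probe sets passed and 4.91% rose.

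Of 8 senescence markers, 3 were measured. WRKY6, a transcription factor of senescence and phosphate response, rose by 1.03 in stunted plants (SE 0.20, adjusted p = 0.0138), a call lost without wild-type replicate 2 (adjusted p = 0.0560) or stunted replicate 2 (0.0577). SAG101 and WRKY53 stayed below the array medians, with changes of -0.02 and 0.01 in stunted plants (adjusted p of 0.923 and 0.978). The mean log2 level of the 3 was 3.24 to 3.49 on stunted, 3.09 to 3.16 on variegated and 2.94 to 3.05 on wild-type arrays. The higher mean on the stunted arrays came from WRKY6, which lay above the array median on 5 of the 9 arrays. WRKY6 was the only 1 of the 3 that passed in stunted against wild-type plants, where 9.66% of all probe sets passed and 4.91% rose. SWEET15, also induced in senescing leaves, went the other way in stunted plants, at -1.11, without passing (limma adjusted p = 0.127). The leaf marker RCA, Rubisco activase, was at 12.52 to 13.02, far above the median on all arrays of the labelled green tissue. The part of root or senescing cells in the rise of SWEET2 was not tested.

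Signs of RNA quality were read beside SWEET2 as well. The actin 3' minus 5' signal was 1.42 to 1.95 on stunted, 0.95 to 1.45 on variegated and 1.11 to 1.56 on wild-type arrays. With it as a covariate the rise of SWEET2 against wild type was 2.02 (adjusted p = 0.00377). With the 25S rRNA signal as a covariate it was 1.86 (adjusted p = 0.00468). Against variegated plants the rise was 1.71 with actin (adjusted p = 0.0422) and 1.46 with 25S (adjusted p = 0.0215). Both signals had their highest group mean in stunted plants, at 1.65 for actin and 7.36 for 25S. On 9 arrays such a covariate cannot separate them from the phenotype.

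The 5 genes most like SWEET2 over the 9 arrays were AT1G68440, AT3G57020, AT1G05340, AT1G09500 and AT2G05540. They were taken by Pearson's r among the 37 named genes whose SD over the arrays was at least that of SWEET2. Their r with SWEET2 was 0.93, 0.93, 0.92, 0.88 and 0.87. The 9 points share their groups and arrays, so these values are a description. In all 5, as in SWEET2, the stunted arrays lay above the other 6. The choice by r and SD on these same arrays favours this pattern and large changes, so neither is a separate finding.

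AT3G57020, a strictosidine synthase-like gene, was at 8.06, 8.02 and 7.85 on the stunted, 6.62, 6.86 and 6.62 on the variegated and 5.91, 5.78 and 5.99 on the wild-type arrays. Unlike SWEET2, whose variegated and wild-type arrays overlapped, it had 3 groups of arrays that did not overlap. The same was true of AT1G68440, AT1G05340 and AT1G09500. The share of all probe sets with such groups was not computed. AT1G68440 was at 6.65, 6.48 and 6.80 on the stunted, 5.20, 5.16 and 5.37 on the variegated and 4.75, 4.42 and 4.53 on the wild-type arrays. In variegated plants AT3G57020 and AT1G68440 had changes of 0.81 and 0.67, against 0.38 for SWEET2, and passed (adjusted p of 0.0161 and 0.0469). There 0.444% of all probe sets passed, and the genes were chosen on these same arrays, so the calls are a description. AT1G09500 had a larger change, 1.60, and did not pass (adjusted p = 0.108), nor did AT1G05340 (0.91) and AT2G05540 (0.37). The call of AT3G57020 was lost in 4 of 9 single-array omissions (adjusted p of up to 0.0645). That of AT1G68440 was lost in 7 of 9 omissions (adjusted p of up to 0.148) and in 4 of 9 other alternatives, which were the intensity trend (0.0562), quantile normalization (0.0572), 25S (0.0543) and bioB (0.110). The largest change in stunted plants among the 5 was that of AT1G09500, a cinnamyl alcohol dehydrogenase-like gene, at 3.94, and the smallest that of AT1G68440, at 2.07.

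**Figure D5:**
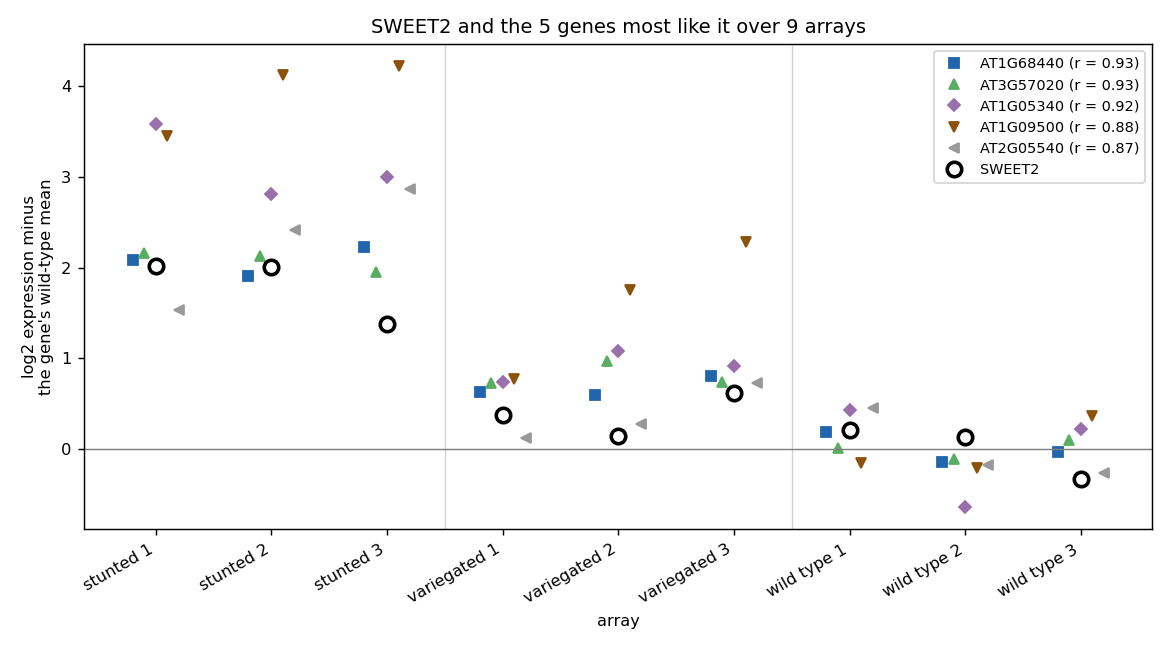
Log2 expression minus the gene's own wild-type mean (y axis) on the 9 arrays (x axis) for SWEET2 (open circles) and the 5 genes most like it. The stunted arrays are the highest for all 6 genes, which the choice by r favours. AT1G09500 rises furthest, to a mean change of 3.94 against 1.80 for SWEET2.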

How the data were processed

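The deposited values are log2 expression per probe set, 1 column for each of 9 arrays. The submitters' processing notes name RMA and affy without versions, and the authors' background step and genome build are not given in the sources used here. RMA-type processing brings arrays to nearly the same distribution, and the array medians were 3.37 to 3.43. Of 22810 probe sets, 64 controls were left out and 22746 were fitted with limma 3.58.1 in R 4.3.3, with 1 mean per group, empirical Bayes moderation and the Benjamini-Hochberg adjustment within each comparison. Tests are two-sided. The platform annotation is old and named 1 gene for 13513 probe sets, and locus codes came from TAIR10.1. A gene with several probe sets was represented by the brightest over all arrays. Arrays carry no read depth, and their number limits the precision. The procedure was tested on simulated arrays.

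All members were named, of each sugar or marker list the genes that passed or else had the smallest p-value, every measured marker, and the 5 genes most like SWEET2. SWEET11, SWEET15, TMT2 and TMT3 were added after their values were seen. The members and lists were chosen with earlier results of these data known. Alternatives left out each array, the dimmest 30% of probe sets or the group not compared, or added a replicate block, 1 of 3 control signals, an intensity trend or another scaling. For genes other than the members, they were added after seeing the data.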

Additional observations from a re-analysis of the deposited data

Results flagged for a closer look

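SWEET2 changed differently in the 2 phenotypes. Its change against wild type was 1.80 in stunted and 0.38 in variegated plants, and the difference between these changes, tested directly as stunted against variegated plants, was 1.42 (SE 0.21, limma adjusted p = 0.0160). All 3 stunted arrays were above all 3 variegated arrays, as in 8.11% of all probe sets. Leaving out variegated replicate 1, variegated replicate 2 or stunted replicate 2 ended the call (adjusted p of 0.0646 to 0.0818). The root marker PYK10 differed in the same direction between the phenotypes, by 1.74 (adjusted p = 0.00180), and its part in the SWEET2 difference was not tested.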

How the results depend on the processing

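Of 183 values of the 7 members under alternatives other than omissions, 173 kept their direction and their side of the threshold. SWEET4 in variegated plants passed with the compared groups alone (-0.80, adjusted p = 0.0248). The 9 changes of sign were in values that passed neither way (adjusted p of at least 0.600). Against wild type these were SWEET6 in variegated plants with bioB (-0.031), SWEET8 there with quantile normalization (-0.0085), and SWEET1 in stunted plants with actin (0.17), 25S (0.13) and bioB (0.11). Between stunted and variegated plants they were SWEET1 (0.10) and SWEET6 (-0.028) with actin, and SWEET3 with median centring (-0.0027) and bioB (-0.0031).

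The probe sets that passed numbered 101 in variegated plants against wild type, and 206 with the compared groups alone, 186 with actin, 155 with 25S and 40 with bioB. For stunted plants against wild type they numbered 2197, and 1321 with the compared groups alone and 1412 with actin. Between stunted and variegated plants they numbered 396, and 133 and 79. The cause of these differences was not tested. With the replicate block they numbered 191, 2889 and 940 in the 3 comparisons. With each probe set's group mean taken off, same-numbered arrays correlated at 0.00445 to 0.281, all positive, though not every pair was over 0.1. Taken over the 3 comparisons, the best match in the other group had the same number in 13 of 18 cases. The labels do not say whether same-numbered samples belong together, and the main model does not pair them. The block changed no member's call.

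Leaving out each array in turn gave 10 to 206 probe sets for variegated plants against wild type, 1241 to 2955 for stunted plants against wild type and 48 to 1404 between the phenotypes. The lowest counts came without variegated replicate 1, stunted replicate 2 and variegated replicate 1, and the highest each without stunted replicate 1. In variegated plants against wild type the omissions gave -0.020 to 0.21 for SWEET1, 0.21 to 0.49 for SWEET2, -0.88 to -0.70 for SWEET4, -0.061 to 0.061 for SWEET7, -0.046 to 0.067 for SWEET8 and -0.67 to 0.13 for SWEET15. In stunted plants against wild type they gave -0.11 to 0.058 for SWEET1, -0.92 to -0.30 for SWEET4 and -0.0089 to 0.10 for SWEET8. Between stunted and variegated plants they gave 1.31 to 1.63 for SWEET2, -0.028 to 0.032 for SWEET3, -0.12 to 0.50 for SWEET4, -0.018 to 0.065 for SWEET6 and -0.019 to 0.069 for SWEET8. The 15 changes of sign among 189 omission values of members were in values that passed neither way. Signal over background limits the 4 dim members, and 3 arrays per group limit the rest.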

Other observations

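SWEET5, a gene of the vegetative cell of pollen, appears in the platform's annotation as AtVEX1 and so is not among the 7 members. Its level was 2.64, 2.69 and 2.72 on the stunted, 2.58, 2.69 and 2.76 on the variegated and 2.76, 2.69 and 2.69 on the wild-type arrays. It lay below the array median on all 9 arrays, and its changes against wild type were -0.03 in stunted and -0.03 in variegated plants (adjusted p of 0.876 and 0.903). Values shared exactly between arrays were more frequent among dim probe sets, at 66.0% of those whose mean lay below the median and 38.9% of those above it.

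VI1, a vacuolar invertase that splits sucrose, was at 7.04, 7.24 and 6.78 on the stunted, 6.71, 6.65 and 6.45 on the variegated and 6.85, 7.07 and 6.76 on the wild-type arrays. All variegated arrays lay below the others, and 7.43% of all probe sets had variegated arrays that were all below the wild-type arrays. The change of VI1 against wild type was -0.29 in variegated plants and did not pass (SE 0.13, adjusted p = 0.443). In stunted plants it was 0.13 (adjusted p = 0.658).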
